A study of Mus musculus with 6 samples.

Results

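The loci of the AP-1 genes Fos, Fosl2, Jun and Junb were examined in lists of DNase I hotspots from mouse macrophages. They were delimited by fixed mm9 windows around each gene, and every hotspot of the 6 lists that overlapped a window was taken. The windows were chr12:86760000-86870000 for Fos, chr5:32380000-32500000 for Fosl2, chr4:94650000-94780000 for Jun and chr8:87470000-87530000 for Junb. Merging the hotspots of all libraries where they shared at least 1 bp gave 45 regions at the 4 loci, of 59069 in the genome: 16 at Fos, 13 at Fosl2, 9 at Jun and 7 at Junb. DNase-seq reads the short DNA pieces released when nuclei are briefly cut with DNase I, and a hotspot is a stretch with more such cuts than its surroundings. The cells were primary macrophages grown from the bone marrow of C57BL/6J mice. All 6 libraries received the bacterial product lipopolysaccharide (LPS), with 8 h given on the labels. In 2 libraries the cells were pre-treated with Dex, the glucocorticoid of the study, in 2 they were late-treated with Dex, and in 2 they received LPS alone. The labels give no Dex dose and no time between Dex and LPS. They also do not say whether the 2 libraries of a group came from separate mice or cultures. Macrophage marker genes were not checked, since no gene positions in mm9 were used here.

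AP-1 is a family of dimeric transcription factors built from Fos and Jun proteins, which join through a leucine zipper and bind DNA through a neighbouring basic stretch. Fos proteins need a Jun partner, whereas Jun proteins can also pair with each other. In macrophages LPS signals through MAP kinases to induce AP-1 genes within minutes, and AP-1 opens and occupies many enhancers together with the lineage factor PU.1. The glucocorticoid receptor, a ligand-activated transcription factor, binds its own DNA elements and is also known to restrain AP-1 activity. These statements are background and were not measured here.

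The promoters of the 4 genes are shown because the windows were placed around these genes. The sequences are the 250 bases before each RefSeq start site in GRCm38.p6, 5′ to 3′ on the gene's strand, and capitals mark the motif matches named after them. They come from chr12:85473640-85473889 (Fos, plus strand), chr5:32136222-32136471 (Fosl2, plus strand), chr4:95052223-95052472 (Jun, minus strand) and chr8:84978749-84978998 (Junb, minus strand). These positions are in another build than the hotspots, so no hotspot was assigned to a promoter, exon or intron.
Fos: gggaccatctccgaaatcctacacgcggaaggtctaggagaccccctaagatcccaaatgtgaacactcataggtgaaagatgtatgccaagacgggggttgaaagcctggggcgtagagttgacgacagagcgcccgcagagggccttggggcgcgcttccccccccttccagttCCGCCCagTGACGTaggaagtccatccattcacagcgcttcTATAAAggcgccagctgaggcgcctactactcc
Fosl2: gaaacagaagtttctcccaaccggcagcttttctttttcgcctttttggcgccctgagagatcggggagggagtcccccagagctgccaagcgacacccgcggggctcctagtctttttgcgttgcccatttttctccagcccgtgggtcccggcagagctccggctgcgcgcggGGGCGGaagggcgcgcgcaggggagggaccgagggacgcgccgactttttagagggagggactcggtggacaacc
Jun: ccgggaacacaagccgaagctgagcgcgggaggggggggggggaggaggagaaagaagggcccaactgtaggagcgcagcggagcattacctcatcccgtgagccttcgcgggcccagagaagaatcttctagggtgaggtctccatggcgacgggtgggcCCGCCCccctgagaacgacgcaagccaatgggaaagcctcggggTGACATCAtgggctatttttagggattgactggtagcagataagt
Junb: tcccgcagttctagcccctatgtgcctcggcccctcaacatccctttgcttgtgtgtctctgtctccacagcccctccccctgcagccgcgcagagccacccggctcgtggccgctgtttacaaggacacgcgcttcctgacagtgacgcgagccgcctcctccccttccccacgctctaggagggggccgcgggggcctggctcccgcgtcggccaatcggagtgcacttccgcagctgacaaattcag

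Both strands were searched. The Fos promoter held TATAAA 33 to 28 bases before the start site, TGACGT (the core of a cyclic AMP response element) 66 to 61 bases before it, and GGGCGG (Sp1) on the minus strand. Jun held TGACATCA, a variant AP-1 site, 45 to 38 bases before its start site, and GGGCGG on the minus strand. Fosl2 held GGGCGG on the plus strand, and none of these letters was in the Junb window. Of 32851 promoters of the same length, 12.4% held TATAAA, 32.7% GGGCGG, 6.47% TGACGT and 2.93% TGACATCA. TGACGT and TGACATCA were added after the sequences had been seen. The AP-1 motif TGANTCA (6.75% of promoters), TGACGTCA (1.55%), the NF-kB-like GGANTTTCC (1.07%), the glucocorticoid receptor core motif TGTTCT (16.1%) and the serum response element (1.47%) had no match in the 4 sequences. The longer motif TGACGTCA contains TGACGT. By gene order in GRCm38, the nearest protein-coding neighbours were Tmed10 and Jdp2 for Fos, Babam2 and Plb1 for Fosl2, Mysm1 and Fggy for Jun, and Prdx2 and Hook2 for Junb. A region in a window may thus belong to a neighbour.

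Most of the 4 loci was laid out alike in all libraries. All 6 libraries listed 30 of the 45 regions (66.7%), against 42.5% of all merged regions in the genome. The 30 were 10 of 13 regions at Fosl2, 11 of 16 at Fos, 2 of 9 at Jun and 7 of 7 at Junb. The largest differences were at Fosl2. There, a region lay 49.9 kb on the low-coordinate side of the strongest one. Among the regions listed by all 6 libraries, it ranked near the bottom with LPS alone and in the upper part in all 4 Dex libraries. In each library's own whole list its hotspot was at percentile 34.8 and 37.9 with LPS alone. The own-list values were 80.0 and 86.0 in pre-treated and 68.9 and 83.1 in late-treated libraries. A region 60.4 kb on the other side ranked lower with Dex. At Fos, a region 68.5 kb from the strongest one ranked higher with Dex. At Jun, a region 53.7 kb from the strongest one was lowest with late Dex, and at Junb 3 weaker regions separated a Dex group from LPS.

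**Figure D1:**
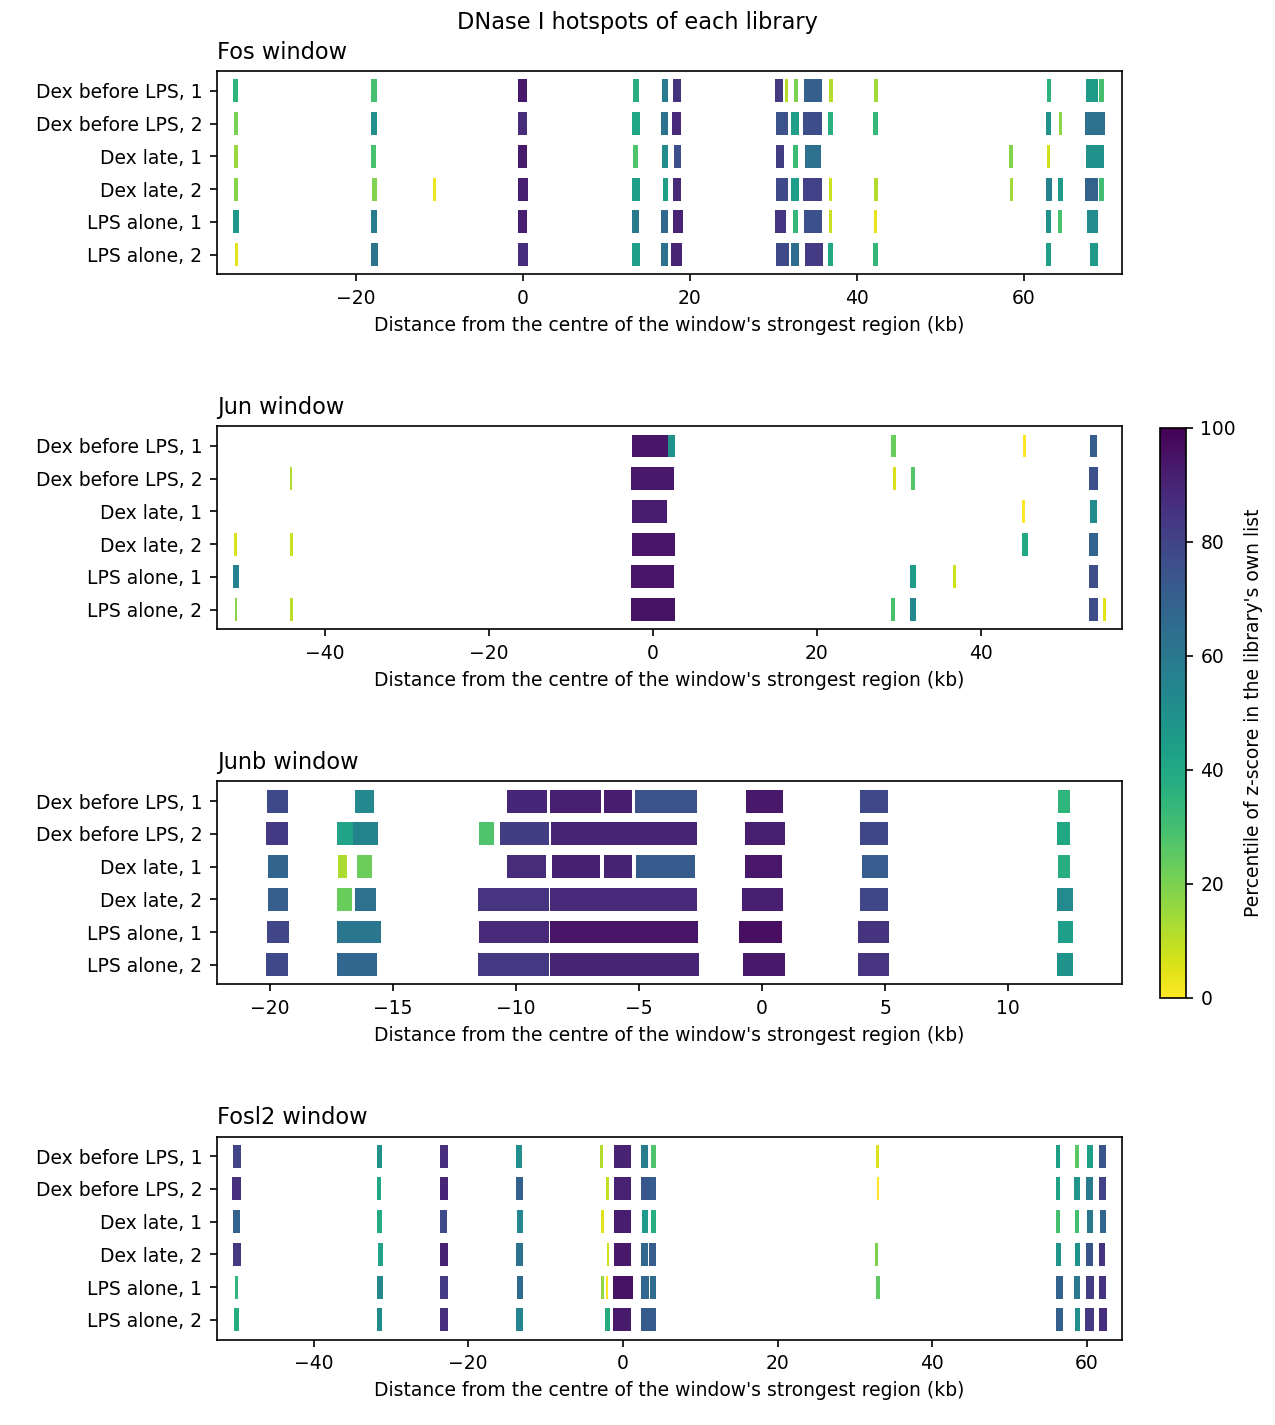
Map of the hotspots at the 4 loci, with distance in kb from the centre of each window's strongest region on the x axis and a row for each library. Each bar is a hotspot, and its shade is the percentile of its z-score in the library's own list. The row pattern is similar in all libraries, and the leftmost bar of the Fosl2 panel is wider and darker in the 4 Dex libraries.

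The deposited z-score and maximum tag density describe a hotspot within its own list, and the lists differed in length from 29347 to 51834 hotspots. Each library was therefore ranked over the same 25091 regions that all 6 listed. A percentile of 90 means that a region's z-score was at least that of 90% of these regions in that library. The 15 regions at the loci that were missing from some list have no percentile. Maximum density is also given relative to the library's median over the 25091 regions, so that a library's scale cancels, and its ratio between groups is a ratio of geometric means. Groups are said not to overlap where both libraries of a group lay beyond both of the other. With 2 libraries against 2, an exact two-sided permutation test gives no p below 0.33. After Benjamini-Hochberg adjustment over all 25091 regions the smallest adjusted p of this exact permutation test was 0.865 for pre-treated against LPS, 0.948 for late-treated against LPS and 1 for pre-treated against late-treated. No difference below therefore passed a test, and each is given by its values and by whether the groups overlapped. A region open in fewer cells and one less open in each cell cannot be told apart.

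By z-score, 7 of the 30 regions ranked higher in both pre-treated libraries than in both LPS libraries, as did 19.3% of all 25091 regions, and 4 ranked lower (19.3% of all). Between late-treated and LPS libraries, 6 ranked higher (17.2% of all) and 6 lower (18.0% of all). All 4 Dex libraries were above both LPS libraries at 3 regions (9.87% of all) and below them at 3 (9.52% of all). Between the Dex groups, 3 ranked higher in both pre-treated libraries (14.7% of all) and 6 lower (14.5% of all). These shares lie near the background. Ranked by maximum density instead, 14 of the 30 were higher in both pre-treated than in both LPS libraries (17.8% of all) and 4 lower (18.6% of all), while 11 were higher in both late-treated libraries (16.7% of all) and 4 lower (17.8% of all). The 14 were 3 of 10 at Fosl2, 6 of 11 at Fos, 2 of 2 at Jun and 3 of 7 at Junb. Over the 30 regions the median difference in mean percentile was 1.95 points for pre-treated minus LPS, against 0.0438 over all regions. For late-treated minus LPS it was 0.773 points, against -0.179 over all regions.

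**Figure D2:**
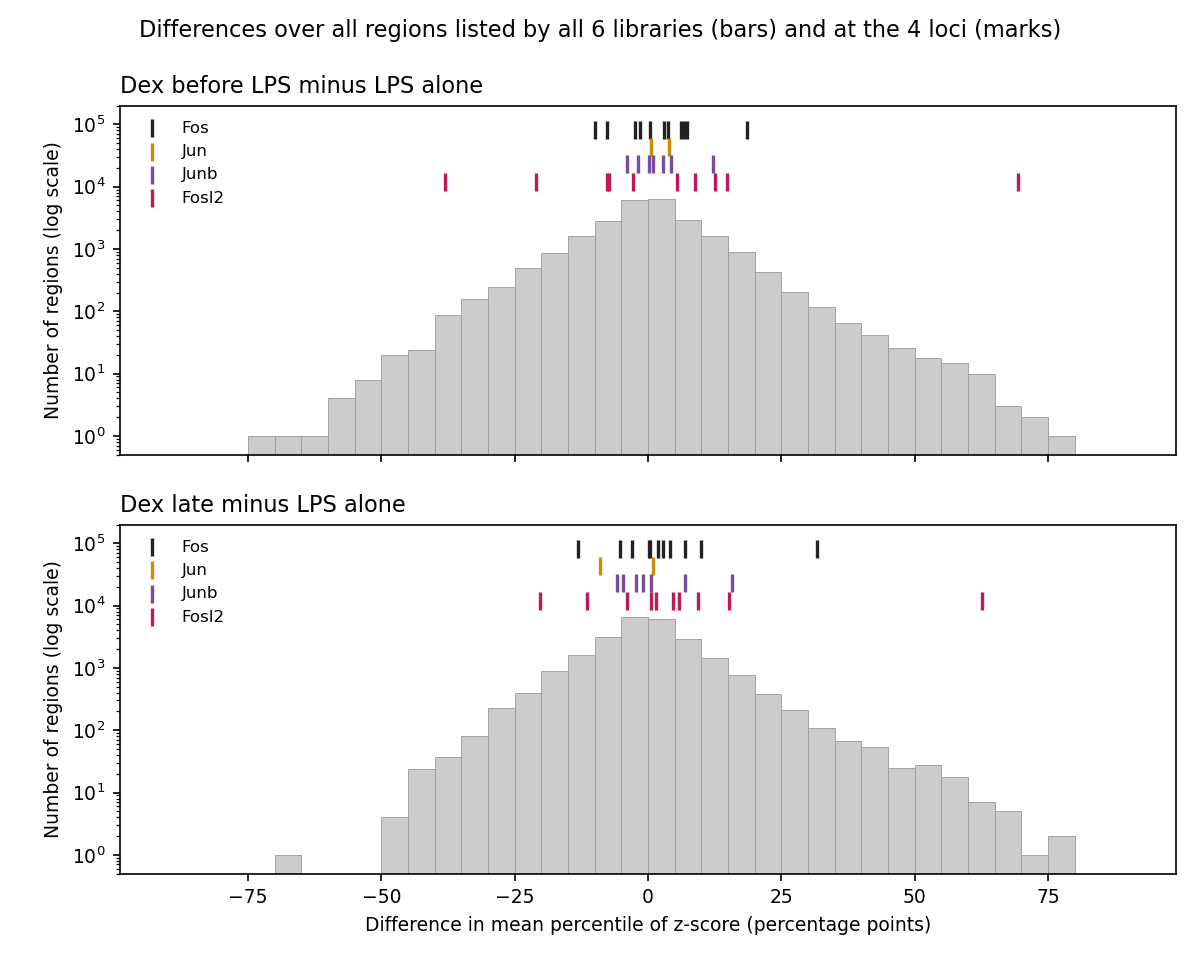
Difference in mean percentile of z-score from LPS alone, in percentage points on the x axis, for Dex before LPS (top) and late Dex (bottom). Bars count all 25091 regions on a log axis and marks are the 30 regions at the 4 loci. The Fosl2 mark far to the right, at 69.3 and 62.6 points, stands apart from the other marks.

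Fosl2 encodes Fra-2, a Fos family protein that lacks the strong activation domain of c-Fos. The region at chr5:32387677-32388838, 49.9 kb from the strongest region of the window, had a z-score of 47.7 and 49.3 in pre-treated, 37.3 and 40.1 in late-treated, and 12.8 and 13.7 in LPS libraries. Its percentiles were 72.6 and 75.2 with Dex before LPS, 64.1 and 70.3 with late Dex, and 4.15 and 5.04 with LPS alone. All 4 Dex libraries were far above both LPS libraries. Its maximum density was 40.4 and 34.9 in pre-treated, 29.6 and 38.5 in late-treated, and 8.36 and 9.37 in LPS libraries. Relative to the library median it averaged 1.998 ± 0.324 with Dex before LPS, 1.83 ± 0.209 with late Dex and 0.469 ± 0.0434 with LPS alone (SD, n = 2 each). The ratio to LPS was thus 4.24 for pre-treated and 3.89 for late-treated cells. The hotspot was also wider, at 1038 and 1152 bp in pre-treated, 1023 and 1042 bp in late-treated, and 505 and 615 bp in LPS libraries.

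Set among all 25091 regions, 3 had a larger percentile difference than this one in pre-treated minus LPS libraries (69.3 points), and 13 had a larger one in late-treated minus LPS libraries (62.6 points). Both comparisons use the same LPS libraries. The region was listed by all 6 libraries, so it is not gained outright. When every list was reduced to its strongest 29347 hotspots, both LPS libraries lost it and all 4 Dex libraries kept it. The cut uses the same z-scores as the ranks. Among the regions of each whole list this one ranked 30663 and 31673 in LPS libraries, and between 6227 and 9026 in Dex libraries. The list of late-treated replicate 1 held 29347 hotspots and so could lose none. Between the Dex groups the pre-treated percentiles were above the late-treated ones by 6.72 points on average, and by 3.108 points without late-treated replicate 1. Their relative maximum densities overlapped, at 2.23 and 1.77 in pre-treated and 1.68 and 1.98 in late-treated libraries.

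A second region of the Fosl2 window ranked higher with Dex, at chr5:32414520-32415560, 23.2 kb on the same side of the strongest one. Its percentiles were 81.4 and 81.7 in pre-treated, 74.0 and 82.9 in late-treated, and 66.8 and 71.4 in LPS libraries. Neither Dex group overlapped LPS, and the late-treated libraries lay on either side of the pre-treated ones. Late-treated minus LPS was 9.34 points, and 4.817 points without late-treated replicate 2. The relative maximum density averaged 2.59 ± 0.129 with Dex before LPS, 2.51 ± 0.0482 with late Dex and 1.86 ± 0.247 with LPS alone (SD, n = 2 each). The ratio to LPS was 1.40 for pre-treated and 1.36 for late-treated cells. The region at chr5:32440503-32442514, just beside the strongest one, had percentiles of 43.9 and 52.8 in pre-treated libraries, above the 37.6 and 41.6 of the LPS libraries. The late-treated libraries, at 39.0 and 49.5, overlapped both other groups. By relative maximum density it did not separate from LPS, at 1.04 ± 0.246 in pre-treated and 1.03 ± 0.0393 in LPS libraries (SD, n = 2 each).

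On the high-coordinate side, 56.5 to 62.0 kb from the strongest region, 4 regions stood close together and were listed by all libraries. The region at chr5:32498029-32499138 had a z-score of 17.8 and 22.4 in pre-treated, 29.6 and 30.4 in late-treated, and 44.5 and 39.4 in LPS libraries. Its percentiles were 26.4 and 29.2 with Dex before LPS, 54.2 and 54.7 with late Dex, and 65.9 and 65.9 with LPS alone. No pair of the 3 groups overlapped, and the order was lowest in pre-treated and highest in LPS libraries. The pre-treated mean was 38.1 points below LPS, which 90 of the 25091 regions exceeded, and 26.7 points below late-treated cells, which 126 exceeded. The late-treated mean was 11.4 points below LPS. Relative maximum density averaged 0.695 ± 0.0507 in pre-treated, 1.07 ± 0.0643 in late-treated and 1.37 ± 0.0241 in LPS libraries (SD, n = 2 each), so the pre-treated to LPS ratio was 0.507 and the late-treated to LPS ratio 0.780.

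Its neighbour at chr5:32494153-32495151 was lower with either timing of Dex, by 21.1 points for pre-treated and 20.3 points for late-treated cells. The pre-treated difference was -13.45 points without pre-treated replicate 2. Percentiles were 26.4 and 11.1 in pre-treated, 22.6 and 16.5 in late-treated, and 40.8 and 38.9 in LPS libraries. The hotspot was narrower too, at 602 and 614 bp with Dex before LPS, 512 and 738 bp with late Dex, and 934 and 999 bp with LPS alone. At chr5:32499721-32500752, which runs past the window's end, the pre-treated percentiles of 64.3 and 64.9 were below the 71.7 and 72.7 of the LPS libraries. The late-treated libraries, at 62.4 and 74.1, lay on either side of the LPS values. The remaining member of this cluster, at chr5:32496539-32497354, overlapped LPS in both comparisons by z-score. By relative maximum density it was below LPS in both, at 0.523 and 0.558 in pre-treated, 0.682 and 0.682 in late-treated, and 0.702 and 0.685 in LPS libraries. Within the same libraries some regions of the Fosl2 window thus ranked higher with Dex and others lower. By z-score, regions with all 4 Dex libraries above both LPS libraries lay 49.9 and 23.2 kb on the low-coordinate side of the strongest region. Those with all 4 below lay 56.5 and 60.4 kb on the high-coordinate side. The region 3.3 kb on the high-coordinate side ranked higher only in pre-treated libraries. The regions at chr5:32406364-32407131 and chr5:32424395-32425334, on the low-coordinate side, overlapped LPS by z-score.

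**Figure D3:**
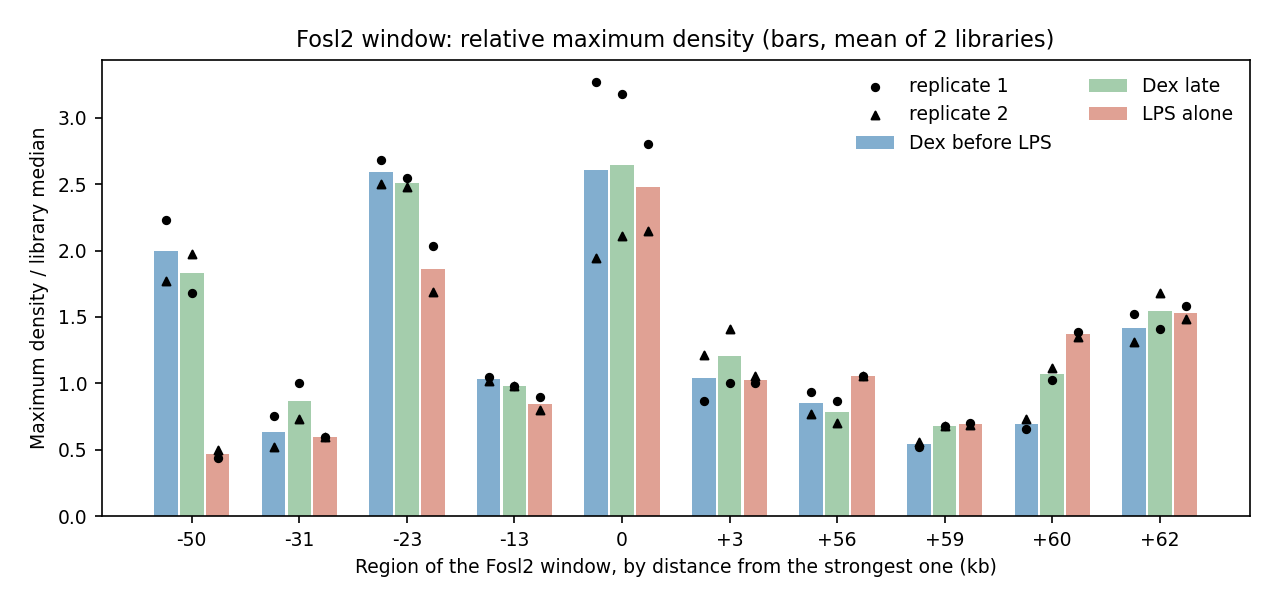
Maximum tag density divided by the library's median, on the y axis, at the 10 regions of the Fosl2 window that all libraries listed, ordered by distance in kb from the strongest one. Bars are means of 2 libraries and points the single libraries. At -50 kb both Dex groups stand near 2, against 0.469 with LPS alone, and at +60 kb LPS alone is highest and Dex before LPS lowest.

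The strongest region at Fosl2, chr5:32436924-32439475, was much the same in all groups. Its percentiles were 86.6 and 83.9 in pre-treated, 90.5 and 88.6 in late-treated, and 90.3 and 85.9 in LPS libraries. Either Dex group overlapped LPS. The pre-treated libraries were below the late-treated ones by 4.29 points on average, and overlapped them when ranked by maximum density. Of the 3 Fosl2 regions missing from some list, none was present in a whole group and absent from another, and their z-scores did not exceed 13.9. The region at chr5:32435212-32435764 was listed by the replicate 1 library of each group and by no replicate 2 library.

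Fos encodes c-Fos, the founding Fos protein and an immediate early gene. The strongest region of its window by mean percentile was chr12:86795698-86796908. Its percentiles were 91.3 and 78.1 in pre-treated, 91.9 and 85.2 in late-treated, and 84.1 and 73.0 in LPS libraries. Late-treated libraries were above LPS, by 10.0 points on average, and pre-treated libraries overlapped LPS. The late-treated difference was 15.48 points without LPS replicate 1. It was 4.395 points without LPS replicate 2, 5.744 without late-treated replicate 1 and 13.26 without late-treated replicate 2. Its maximum density was 103.4 and 52.4 in pre-treated, 91.6 and 62.9 in late-treated, and 54.2 and 35.1 in LPS libraries. In every group the replicate 1 library was the higher one, and with the same replicate number both Dex libraries were above the LPS library. Relative to the library median the ratio to LPS was 1.69 for pre-treated and 1.78 for late-treated cells. For pre-treated cells 440 of the 25091 regions had a larger ratio, and for late-treated cells 354.

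The next strongest region, chr12:86814027-86815485, lay 18.5 kb further along. Its percentiles were 79.9 and 78.8 in pre-treated, 71.6 and 79.4 in late-treated, and 81.9 and 79.7 in LPS libraries. The late-treated values were below LPS, 1 of them only narrowly, and the pre-treated values overlapped. The late-treated difference was -9.094 points without late-treated replicate 2 and -1.223 points without late-treated replicate 1. By relative maximum density both Dex groups overlapped LPS, at 3.70 ± 0.124 with Dex before LPS, 3.31 ± 0.627 with late Dex and 3.58 ± 0.271 with LPS alone (SD, n = 2 each).

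The clearest difference at Fos was at the high-coordinate end of the window, at chr12:86863618-86866030. This region had a z-score of 18.2 and 24.6 in pre-treated, 23.9 and 26.7 in late-treated, and 18.0 and 15.7 in LPS libraries. Its percentiles were 27.6 and 35.3 with Dex before LPS, 43.2 and 45.9 with late Dex, and 16.2 and 9.46 with LPS alone. The 3 groups did not overlap, and late-treated cells were highest. Ranked by maximum or average density the Dex groups overlapped each other, with pre-treated minus late-treated at -8.768 and -8.529 points, and both stayed above LPS. The late-treated mean was 31.7 points above LPS, which 264 of the 25091 regions exceeded, and the pre-treated mean was 18.6 points above LPS, which 1135 exceeded. Pre-treated cells were 13.1 points below late-treated cells on average. Hotspots covered 2055 and 2413 bp of it in pre-treated, 2187 and 2147 bp in late-treated, and 1323 and 950 bp in LPS libraries. Relative maximum density was 1.42 times the LPS value in pre-treated and 1.70 times in late-treated cells. Jdp2, the neighbour of Fos at higher coordinates in GRCm38, encodes an AP-1 repressor, and the distance from the region to either gene was not determined.

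Beside it, the region at chr12:86858937-86859600 had percentiles of 17.7 and 17.4 in pre-treated libraries, above the 13.7 and 8.02 of the LPS libraries. The late-treated values of 4.17 and 25.7 spanned all others. The pre-treated difference of 6.69 points was 3.798 points without LPS replicate 2. At chr12:86778117-86778975 all 4 Dex libraries were below LPS, with percentiles of 12.4 and 17.9 in pre-treated, 22.04 and 1.95 in late-treated, and 24.5 and 25.6 in LPS libraries. The late-treated difference of -13.1 points was -3.043 points without late-treated replicate 2 and -29.3 points without late-treated replicate 1. By maximum density this region did not separate, at 18.9 and 28.5 in pre-treated, 22.8 and 17.7 in late-treated, and 23.4 and 23.3 in LPS libraries. Of the other 6 Fos regions listed by all libraries, none separated either Dex group from LPS by z-score. By relative maximum density 3 of these 6 did so, and they are named after their values were seen. At chr12:86761682-86762314 it was 0.955 and 0.904 in pre-treated libraries, against 0.877 and 0.722 in LPS libraries. At chr12:86809411-86810371 it was 0.818 and 0.865 in pre-treated, 0.909 and 0.932 in late-treated, and 0.789 and 0.741 in LPS libraries. The third was chr12:86812873-86813748. Its relative maximum density was 1.77 and 1.58 in pre-treated, 1.36 and 1.23 in late-treated, and 1.25 and 1.15 in LPS libraries, a pre-treated to LPS ratio of 1.40.

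Of the Fos regions 5 were missing from some list, and their z-scores did not exceed 16.5. The region at chr12:86854541-86855026 was listed in both late-treated libraries, with z-scores of 14.4 and 10.5, and in no other library. Regions with both late-treated and neither LPS library numbered 2 of the 45, against 0.547% of all merged regions, and those with both late-treated and neither pre-treated library 1 of 45 (0.350% of all). The regions at chr12:86832815-86833435 and chr12:86838240-86838856 were listed by all but replicate 1 of the late-treated group, which had the shortest list.

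**Figure D4:**
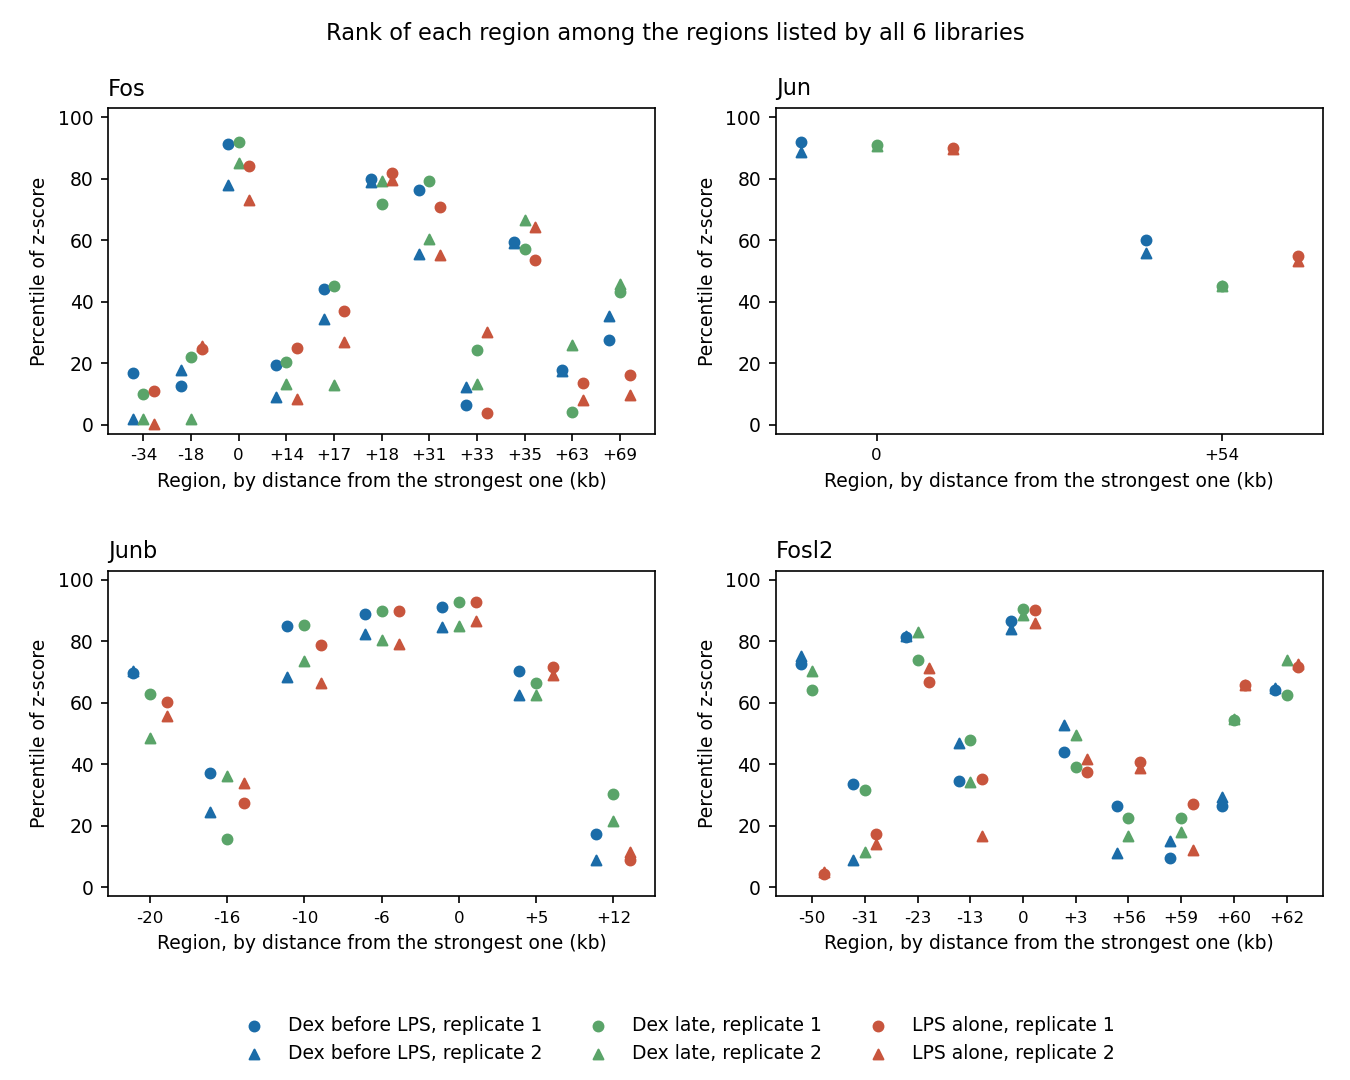
Percentile of z-score (y axis) of each region listed by all 6 libraries, ordered by distance in kb from the strongest region of its window. Colours are groups and marker shapes replicate numbers. The groups separate widely at -50 and +60 kb of Fosl2 and at +69 kb of Fos, and lie close together at the strongest region of Jun.

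Jun encodes c-Jun, the main Jun partner of c-Fos. The strongest region of its window was chr4:94716496-94721775, 5280 bp wide. The percentiles were 91.9 and 88.8 in pre-treated, 90.8 and 90.6 in late-treated, and 89.9 and 89.7 in LPS libraries. The late-treated mean was 0.893 points above LPS without overlap, and 10429 of the 25091 regions had a larger difference. Ranked by average density the late-treated mean was below LPS, at -1.136 points, and ranked by maximum density it was 5.558 points above LPS without overlap. Pre-treated libraries overlapped LPS by z-score and by relative maximum density. Ranked by maximum density both of them were above both LPS libraries. Hotspots covered 5084 and 5253 bp in pre-treated, 4305 and 5243 bp in late-treated, and 5260 and 5267 bp in LPS libraries. Its relative maximum density averaged 2.99 ± 0.985 with Dex before LPS, 3.01 ± 0.402 with late Dex and 2.34 ± 0.484 with LPS alone (SD, n = 2 each).

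The other Jun region shared by all libraries, chr4:94772310-94773409, differed with the timing of Dex. Its z-score was 34.3 and 33.7 in pre-treated, 24.8 and 26.3 in late-treated, and 35.2 and 31.7 in LPS libraries. The percentiles were 60.1 and 56.0 with Dex before LPS, 45.1 and 44.9 with late Dex, and 55.0 and 53.1 with LPS alone. Late-treated cells were lowest and pre-treated cells highest, with no overlap between the 3 groups. Pre-treated minus late-treated was 12.97 points, a difference that 1439 of the 25091 regions exceeded. Late-treated minus LPS was -9.02 points and pre-treated minus LPS 3.95 points. That last difference was 1.841 points without pre-treated replicate 1 and 5.984 points without pre-treated replicate 2. Relative maximum density was 1.13 ± 0.0284 in pre-treated, 0.852 ± 0.0161 in late-treated and 1.05 ± 0.0234 in LPS libraries (SD, n = 2 each).

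Jun had the most regions that came and went between lists, 7 of 9. No region of the 4 loci was listed in both pre-treated and neither LPS library (0.957% of all merged regions). In the other direction, 1 of 45 was listed in both LPS and neither pre-treated library (8.48% of all). This was chr4:94667955-94668645, whose z-score was 19.7 and 10.3 in LPS libraries, and replicate 2 of the late-treated group listed it at 9.57. Also 1 of 45 was in both LPS and neither late-treated library (9.22% of all), chr4:94750507-94751214. It stood at 15.5 and 17.7 with LPS alone and was listed by replicate 2 of the pre-treated group at 12.7. The region at chr4:94764167-94764912 was listed in both late-treated libraries, at 11.6 and 15.0, and by 1 pre-treated library, replicate 1, at 9.36, but by neither LPS library. The region at chr4:94748185-94748739 was in both pre-treated libraries, at 12.5 and 9.74, in neither late-treated library and in replicate 2 of the LPS group at 12.04. It was the only one of 45 listed in both pre-treated and neither late-treated library (1.53% of all). The lowest z-score of a list lay between 7.98 and 11.6, so that a region just under a list's minimum counts as missing.

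Junb encodes JunB, a Jun protein that activates weakly and often tempers c-Jun. Its window was the shortest, and all libraries listed each of its 7 regions. The strongest was chr8:87508720-87510587, with percentiles of 91.3 and 84.7 in pre-treated, 92.8 and 85.0 in late-treated, and 92.9 and 86.7 in LPS libraries. The groups overlapped. Next to it was chr8:87501032-87507110, which at 6079 bp was the widest region of the 4 loci, and 23 of all 59069 merged regions were at least this wide. Its percentiles were 88.8 and 82.3 in pre-treated, 89.8 and 80.5 in late-treated, and 90.0 and 79.1 in LPS libraries, again with overlap. In both replicate 1 libraries treated with Dex it was split into 3 hotspots, and the other 4 libraries listed it as 1.

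Among the weaker Junb regions, 3 separated a Dex group from LPS. The region at chr8:87489507-87490426 had percentiles of 69.8 and 70.5 in pre-treated, 62.9 and 48.7 in late-treated, and 60.2 and 55.8 in LPS libraries. Pre-treated cells were above the other groups, by 12.1 points over LPS and 14.3 points over late-treated cells (7.137 points without late-treated replicate 2). The region's relative maximum densities overlapped in both comparisons. Ranked by maximum density, pre-treated libraries stayed above both groups, by 4.864 points over LPS and 5.27 points over late-treated libraries. Ranked by average density, these differences were 4.894 and 7.19 points, again without overlap. At chr8:87521641-87522276 it was the late-treated cells that were highest, with percentiles of 17.2 and 8.96 in pre-treated, 30.3 and 21.5 in late-treated, and 8.94 and 11.4 in LPS libraries. At chr8:87513546-87514810 the late-treated percentiles of 66.5 and 62.6 were below the 71.7 and 69.1 of the LPS libraries, and the pre-treated values of 70.5 and 62.5 overlapped them. The late-treated difference of -5.86 points was -3.874 points without late-treated replicate 2. By relative maximum density both Dex groups were above LPS at the region 12.3 kb from the strongest one, at 0.886 and 0.827 in pre-treated, 1.05 and 0.909 in late-treated, and 0.719 and 0.778 in LPS libraries. At chr8:87492385-87494185 the pre-treated values of 1.11 and 1.13 were above the 0.982 and 1.02 of the LPS libraries. At chr8:87498124-87501000, named after its values were seen, the percentiles were 85.1 and 68.5 in pre-treated, 85.5 and 73.6 in late-treated, and 78.8 and 66.3 in LPS libraries. The groups overlapped there, and within either replicate number both Dex libraries were above the LPS library.

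The strongest region of each window had a higher z-score in the replicate 1 than in the replicate 2 library of every group. Over the 3 groups the replicate 1 to replicate 2 ratio of the z-score lay between 1.66 and 1.83 at Fos, 1.27 and 1.52 at Fosl2, 1.33 and 1.37 at Jun, and 1.53 and 1.81 at Junb. The median ratio over all 25091 regions was 0.942 in pre-treated, 1.03 in late-treated and 1.10 in LPS libraries. What the replicate number stands for is not on the labels. At the Fosl2 region 49.9 kb from the strongest one, both Dex libraries were above the LPS library within either replicate number, by percentile and by maximum density. In order of mean percentile over the 6 libraries the strongest regions were Jun (90.3), Junb (88.9), Fosl2 (87.6) and Fos (83.9), and neighbours in this order overlapped in their library values. These percentiles are not corrected for region width.

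**Figure D5:**
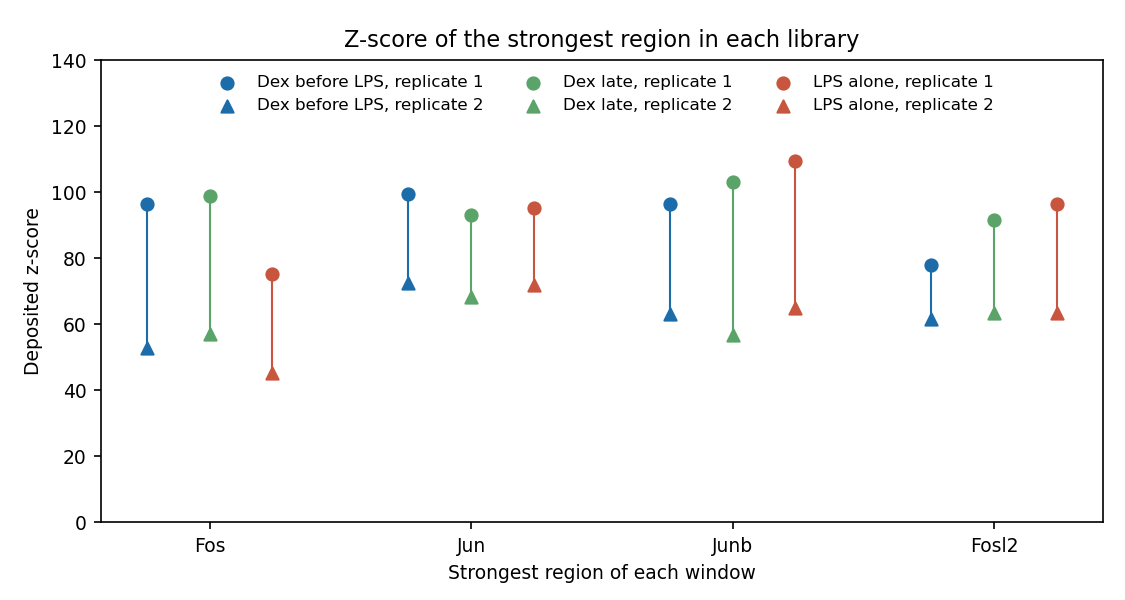
Deposited z-score (y axis) of the strongest region of each window in each library, with the libraries of a group joined by a line. In every group and at all 4 loci the replicate 1 library is above the replicate 2 library.

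The length covered by hotspots was compared as a measure of each locus as a whole. At Fosl2 it averaged 10.5 ± 0.675 kb in pre-treated, 9.97 ± 1.13 kb in late-treated and 11.5 ± 0.317 kb in LPS libraries. At Fos it was 13.3 ± 1.49 kb in pre-treated, 12.6 ± 2.26 kb in late-treated and 12.7 ± 0.398 kb in LPS libraries. Jun had 7.06 ± 0.422 kb in pre-treated, 6.54 ± 1.72 kb in late-treated and 8.37 ± 0.371 kb in LPS libraries, and Junb 13.2 ± 1.68 kb in pre-treated, 13.2 ± 1.82 kb in late-treated and 15.1 ± 0.0658 kb in LPS libraries (SD, n = 2 each throughout). With the whole lists both Dex groups lay below LPS without overlap at Fosl2, Jun and Junb (exact permutation p = 0.33 each, the smallest that 2 against 2 libraries can give). At Fos neither Dex group separated from LPS, with an exact permutation p of 1 for both. The whole lists moved the same way, at 28.1 and 37.7 Mb in pre-treated, 23.5 and 36.3 Mb in late-treated, and 40.6 and 44.4 Mb in LPS libraries. With lists of equal length the Fosl2 groups overlapped, at -0.353 kb for pre-treated and -0.373 kb for late-treated minus LPS (exact permutation p = 1 for both). The same lists gave -0.986 and -1.21 kb at Jun and -2.15 and -2.14 kb at Junb for pre-treated and late-treated minus LPS, still without overlap. With the whole lists, leaving out a single library moved the differences from LPS at Fosl2, Jun and Junb by more than 1.5 times. The exception was pre-treated minus LPS at Jun, which lay between -1.607 and -1.01 kb. Late-treated minus LPS lay between -3.042 kb without late-treated replicate 2 and -0.6155 kb without late-treated replicate 1 at Jun, between -3.129 and -0.5505 kb at Junb and between -2.331 and -0.7265 kb at Fosl2, each without the same libraries. Pre-treated minus LPS lay between -3.025 kb without pre-treated replicate 2 and -0.6495 kb without pre-treated replicate 1 at Junb, and between -1.527 and -0.5725 kb at Fosl2 without the same libraries.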

How the data were processed

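DNase-seq hotspot lists of 6 libraries were used, 2 per group, grouped by sample title. The labels' protocols give a DNase I digest (80 U/ml, 3 min), selection of fragments of 100 to 500 bp and single-end reads of 51 bp. Positions are in mm9 and CASAVA was used, per the submitters' processing notes. Which aligner, caller and threshold made the hotspots, and whether positions count from 0 or 1, is not stated there. Each deposited list holds, per the file headers, the authors' maximum and average tag density (signal), a z-score (a score of enrichment) and a p-value per hotspot, and the deposited p-value was not used. Read depth is unknown, so no counting interval was computed. How the authors set signal and score against sequencing depth is not stated.

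Hotspots were merged in Python 3.11.15 with pandas 2.3.3, and the highest z-score or maximum density in a region was taken. The text names the strongest region of each window, those separating a Dex group from LPS, and those present in a whole group and absent from another. The windows, lists and rules were chosen with earlier results of these data known. Planned marker genes and further AP-1 genes were not placed, for want of mm9 gene positions. Merging and calls were tested on simulated data. Promoters are from RefSeq (GRCm38.p6), and all 4 genes matched by symbol.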

Additional observations from a re-analysis of the deposited data

How the results depend on the processing

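Each result was recomputed with hotspots up to 500 bp apart merged, with lists of equal length (29347 hotspots), with a common minimum z-score of 11.6, with ranks by maximum or average density, with the replicate number as a block, with hotspots wholly inside the windows, and without each library in turn. With lists of equal length the covered length at Fos was 0.102 kb higher in late-treated than in LPS libraries, and that at Junb differed by -0.0105 kb between pre-treated and late-treated libraries, both reversed. The same lists gave 1 region in both pre-treated and neither LPS library (3.22% of all regions) and 0 in both pre-treated and neither late-treated library (1.84%). The common minimum gave 0 regions in both LPS and neither pre-treated library (5.55% of all), 1 in both late-treated and neither LPS library (1.41%), and 0 in both pre-treated and neither late-treated library (1.35%). Ranking by maximum density gave 14 regions with pre-treated above LPS (17.8% of all), 11 with late-treated above LPS (16.7%), 5 with pre-treated above late-treated (13.3%) and 9 with all Dex libraries above LPS (9.12%). Ranking by average density gave 13 with pre-treated above LPS (18.3% of all) and 8 with all Dex libraries above LPS (9.62%). By average density the Fos region at chr12:86778117-86778975 reversed to 1.698 points for pre-treated minus LPS, and the strongest Jun region to -1.136 points for late-treated minus LPS. The cause of these changes was not tested.

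The labels do not say that replicate numbers pair the libraries. The correlation of replicate 1 minus replicate 2 over the 25091 regions was 0.363 between pre-treated and LPS, 0.354 between late-treated and LPS, and 0.415 between pre-treated and late-treated libraries. With the replicate block, which asks only for 1 direction in both pairs, 12 regions had pre-treated above LPS (32% of all shared regions), 8 pre-treated below LPS (31.5%), 12 late-treated above LPS (29.5%) and 11 pre-treated below late-treated (27.8%). The block leaves mean differences as they are.

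Without each library in turn, covered length at Fos ranged from -0.4715 to 1.639 kb for pre-treated minus LPS, from -1.672 to 1.53 kb for late-treated minus LPS, and from -0.9465 to 2.256 kb for pre-treated minus late-treated. Pre-treated minus late-treated ranged from -0.323 to 1.281 kb at Fosl2, -0.6925 to 1.734 kb at Jun and -1.287 to 1.291 kb at Junb. For the pre-treated against late-treated differences the lowest value came without late-treated replicate 1 and the highest without late-treated replicate 2. Counts grow by construction when a group keeps 1 library. Regions in both LPS libraries then numbered 1 to 5 against neither late-treated (9.26 to 26.9% of all) and 1 to 3 against neither pre-treated (8.48 to 20.3%). Those in both late-treated and neither pre-treated numbered 1 to 3 (0.372 to 7.72%), and those in both pre-treated 0 to 1 against neither LPS (0.957 to 4.52%) and 1 to 4 against neither late-treated (1.61 to 9.51%). All Dex libraries were above LPS at 3 to 10 regions (12.2 to 23.5% of all) and below at 3 to 9 (12.1 to 24.3%). Late-treated was above LPS at 6 to 14 (17.2 to 36.7%) and below at 6 to 11 (18.0 to 37.0%). Pre-treated was above LPS at 7 to 16 (19.2 to 37.0%) and below at 4 to 11 (19.3 to 36.8%), and above late-treated at 3 to 10 (14.7 to 34.6%) and below at 6 to 15 (14.5 to 33.7%). At the Fosl2 region 49.9 kb from the strongest one, the difference without 1 library stayed between 68.0 and 70.6 points for pre-treated minus LPS and between 59.4 and 65.5 points for late-treated minus LPS. Unknown read depth and 2 libraries a group limit all values.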
